A study of Caenorhabditis elegans with 2 samples.

Results

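The genes described here are 54 sarcomere, muscle attachment and calcium-handling genes of Caenorhabditis elegans, expressed in body wall or pharyngeal muscle. They were picked by gene name and role rather than by a binding value, at a time when earlier results of these data were known, and all 54 were found among the 19973 nuclear protein-coding genes of the Ensembl WBcel235 annotation. By role they comprise 10 thick filament genes, 19 thin filament genes, 3 genes for giant immunoglobulin-domain proteins, 18 attachment genes and 4 calcium-handling genes. The binding data come from chromatin immunoprecipitation and sequencing (ChIP-seq) of eGFP-tagged MEF-2 in 2 biological replicates, which form a single group with no other genotype, stage or treatment. Both replicates were made from whole larvae at the L1 stage, of strain OP301 (unc-119(tm4063) III; wgIs301), with males and females pooled. Both carry the unc-119 allele and the wgIs301 insertion of tagged mef-2; the antibody is recorded under mef-2 and the library size range as 150-350. In whole larvae, sites in muscle nuclei and sites in the nuclei of other tissues cannot be told apart.

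Worms have a single MEF2 gene, mef-2, and its product is a MADS-box transcription factor that binds an A/T-rich DNA element. In flies and vertebrates the MEF2 proteins drive the transcription of contractile protein genes during muscle differentiation, whereas worms without mef-2 still form working muscle, and roles of worm MEF-2 are known in neurons and at the neuromuscular junction. The contractile unit of body wall muscle is a lattice of myosin thick filaments held at M-lines and actin thin filaments held at dense bodies, and both structures are fixed through integrin to the basement membrane.

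Of the 4 peak lists used, the thresholded list held 832 sites, the pooled list 28182, the replicate 1 list 30000 and the replicate 2 list 16385. The last 3 are relaxed lists that mix peaks with background. The authors' caller gave each site a signal value on a scale that is not stated, so values and ranks (1 is the strongest) are compared within a list only. The thresholded list is made up of exactly the 832 strongest pooled sites, and its lowest signal value was 27.4. Read counts and a control library were not analysed here, so sequencing depth is unknown and each list gives a single value per gene with no SD. Genes and sites are not replicates of a condition, no test was run, and the 95% Wilson intervals given with shares cover counting error only.

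The strongest sites near these genes fell in the regions of genes for calcium handling, attachment and the thin filament, but those assigned to egl-19, pat-3 and act-2 lie nearer to the 5' end of another gene. Sequence is shown for the 6 strongest pooled sites of the set outside the chromosome of mef-2. Each line gives 201 bases of the forward strand of ce11 (WBcel235, from the RefSeq genome), 100 bases to each side of the point source, the base that the authors' caller marked as the site. Capitals mark the letters GAGAG and CTCTC, the same 5-base run on the 2 strands, which was picked out after these sequences had been seen. The sites are those upstream of egl-19 (chrIV:7402175-7402375), in an intron of zyx-1 (chrII:13066878-13067078), at the 5' end of sca-1 (chrIII:10817226-10817426), upstream of pat-3 (chrIII:3915763-3915963), at the 5' end of mup-2 (chrX:6410389-6410589) and upstream of act-2 (chrV:11082551-11082751).
egl-19: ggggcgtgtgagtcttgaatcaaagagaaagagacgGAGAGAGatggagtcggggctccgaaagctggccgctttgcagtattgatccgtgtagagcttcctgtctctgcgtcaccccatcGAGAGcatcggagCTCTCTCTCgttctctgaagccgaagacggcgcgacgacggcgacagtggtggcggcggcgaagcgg
zyx-1: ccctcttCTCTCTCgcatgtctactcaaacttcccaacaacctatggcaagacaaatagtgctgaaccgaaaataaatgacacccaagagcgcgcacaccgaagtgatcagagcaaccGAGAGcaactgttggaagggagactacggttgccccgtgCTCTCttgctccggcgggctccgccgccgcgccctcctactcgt
sca-1: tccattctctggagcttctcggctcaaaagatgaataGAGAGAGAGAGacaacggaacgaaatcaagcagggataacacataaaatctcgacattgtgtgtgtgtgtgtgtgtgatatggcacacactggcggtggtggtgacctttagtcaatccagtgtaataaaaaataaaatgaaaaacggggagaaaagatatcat
pat-3: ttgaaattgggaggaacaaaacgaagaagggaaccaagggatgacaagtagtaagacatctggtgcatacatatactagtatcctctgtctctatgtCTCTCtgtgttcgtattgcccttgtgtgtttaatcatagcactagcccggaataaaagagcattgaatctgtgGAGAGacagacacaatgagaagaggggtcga
mup-2: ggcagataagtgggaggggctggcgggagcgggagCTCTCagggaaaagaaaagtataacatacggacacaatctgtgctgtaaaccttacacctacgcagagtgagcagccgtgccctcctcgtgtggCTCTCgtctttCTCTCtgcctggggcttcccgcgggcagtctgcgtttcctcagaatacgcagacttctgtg
act-2: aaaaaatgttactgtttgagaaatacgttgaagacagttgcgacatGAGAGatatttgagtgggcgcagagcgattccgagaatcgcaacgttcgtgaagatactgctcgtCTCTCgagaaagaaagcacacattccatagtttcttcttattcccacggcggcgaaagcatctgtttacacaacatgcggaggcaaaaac
Every one of the 6 windows held at least 2 matches to this run, with 6 at egl-19, some of them overlapping, and none held a MEF2 element or the E-box CAGCTG. Their A/T content was 39.8% at egl-19, 43.3% at mup-2, 43.8% at zyx-1, 55.7% at act-2, 57.2% at pat-3 and 58.7% at sca-1, all below the median of 64.7% over all nuclear pooled sites.

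None of the 54 genes had a thresholded site from 1000 bp upstream to 200 bp downstream of its outermost annotated 5' end. This count of 0 of 54 allows a share of up to 5.56% when a count of 0 is read as at most 3 genes, and its 95% Wilson interval reaches 6.64%, so both limits lie above the 2.93% of all 19973 genes. A pooled site of any rank lay in that window at 34 of the 54 genes (63.0%, 95% Wilson interval 49.6 to 74.6), beside 38.5% of all genes. In replicate 1 the count was 27 of 54 (50%, 37.1 to 62.9), beside 39.6% of all genes, and in replicate 2 it was 30 of 54 (55.6%, 42.4 to 68), beside 25.3%. The interval for replicate 1 thus contains the all-gene share, while those of the pooled list and of replicate 2 lie above it. The 54 genes are a chosen list, so this is a description and not a test. A 5' site in both replicate lists was found for 16 of the 54 genes (29.6%), beside 16.1% of all genes. When the window was set at every annotated transcript start, zyx-1 was the 1 gene of the 54 with a thresholded site.

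The depth at which the 54 genes appear was then followed down the ranked pooled list. Among the 2000 strongest sites, 3 genes had one at the 5' end (5.56%, Wilson 1.91 to 15.1), beside 6.29% of all genes. Among the 5000 strongest, 16 did (29.6%, 19.1 to 42.8), beside 12.3%, and among the 10000 strongest, 19 did (35.2%, 23.8 to 48.5), beside 19.2%. By rank 3000 the count was 10 (18.5%, beside 8.51% of all genes). Taking the strongest 5' site of each gene that had one, the median signal value was 11.4 for these 34 genes (median rank 5630, best rank 893) and 9.12 for all 7686 genes with a site (median rank 10003). In replicate 1 the medians were 9.01 and 7.68 in the same order. In replicate 2 they were 3.38 for the sarcomere and attachment genes and 3.59 for all genes, so in that list the higher share came without a higher median value.

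**Figure D1:**
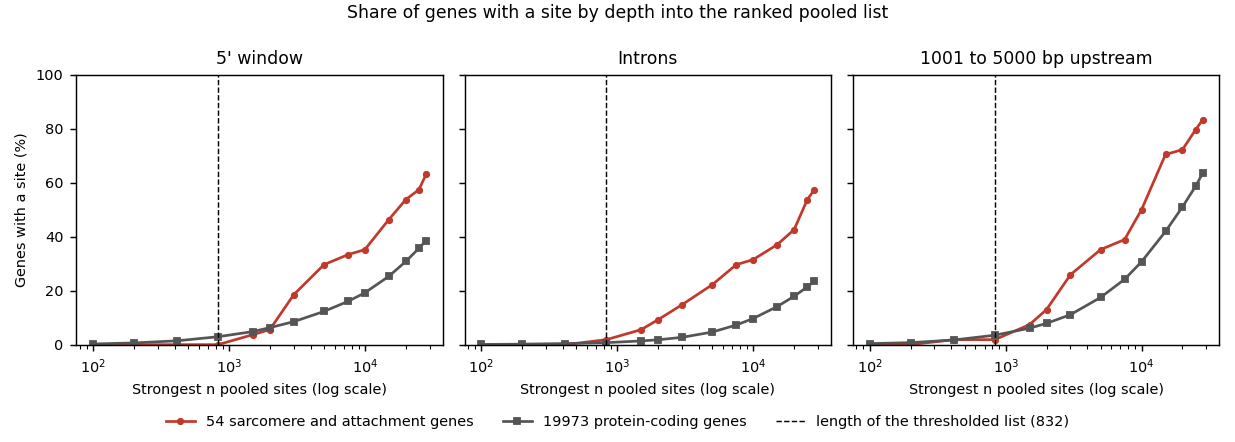
Share of genes with a pooled site (vertical axis, %) among the strongest n sites of the pooled list (horizontal axis, log scale), in the 5' window (left), in introns (middle) and beyond 1000 and up to 5000 bp upstream (right). The 54 genes (red circles) lie at 0, 1.85 and 1.85% at the length of the thresholded list (dashed line) and at 63.0, 57.4 and 83.3% at the end of the pooled list, where all 19973 protein-coding genes (grey squares) reach 38.5, 23.5 and 63.5%.

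Of the 54 genes, 16 had a 5' site among the 5000 strongest pooled sites, beside 12.3% of all genes. They comprised 4 of 10 thick filament genes, 7 of 19 thin filament genes, 0 of 3 genes of giant proteins, 2 of 18 attachment genes and 3 of 4 calcium-handling genes. The difference between roles was not tested. Of these 16 sites, 11 were matched by an interval of each replicate, 4 by replicate 1 only and 1 by replicate 2 only.

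**Figure D2:**
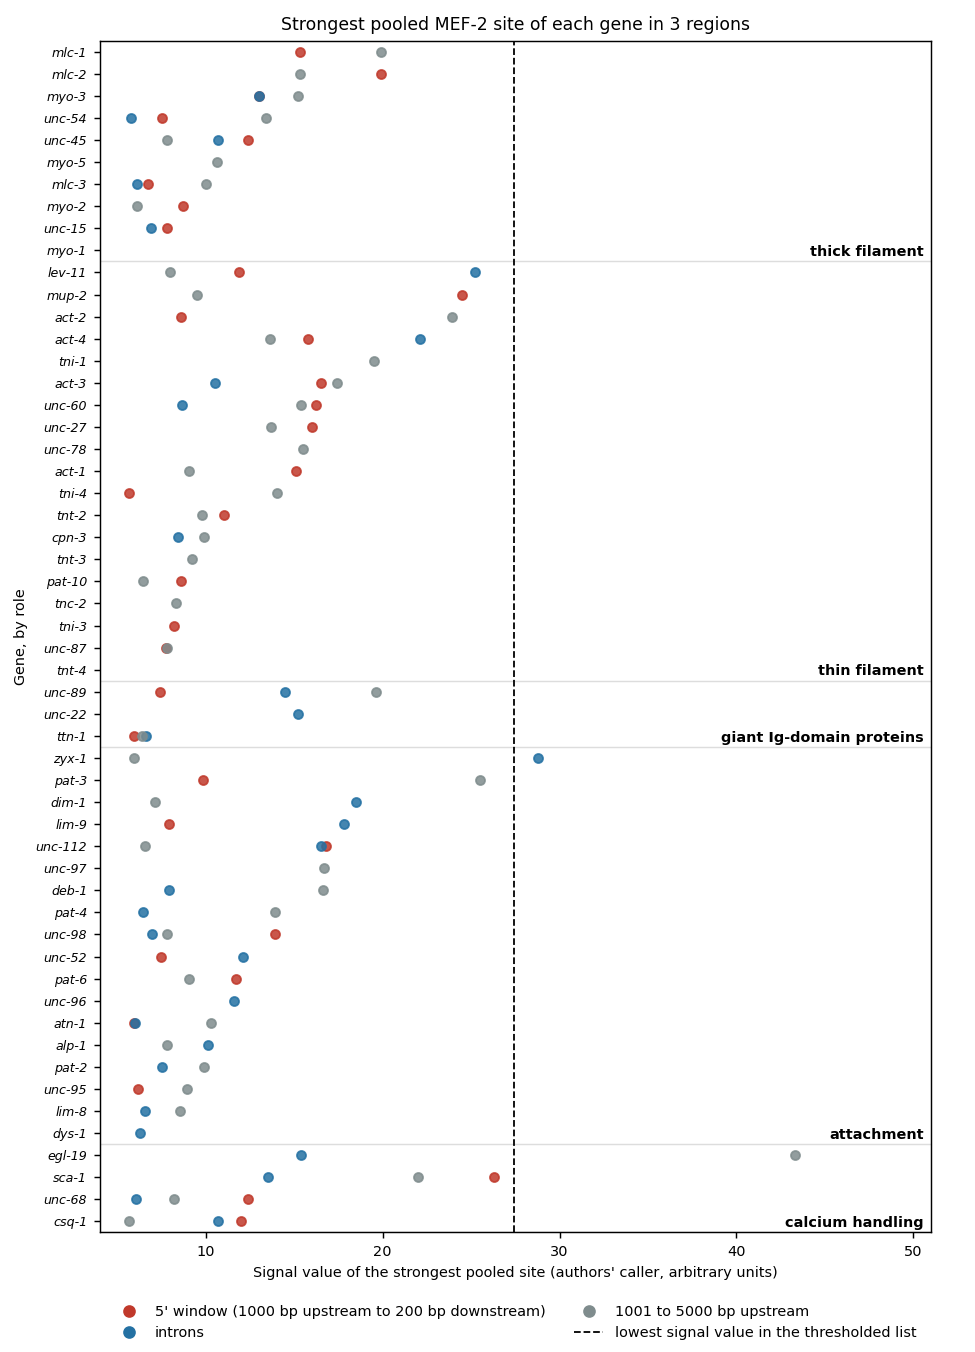
Signal value of the strongest pooled site of each gene (horizontal axis, arbitrary units of the authors' caller) in the 5' window (red), in introns (blue) and beyond 1000 and up to 5000 bp upstream (grey), with genes grouped by role. Only the upstream site of egl-19 (43.3) and the intronic site of zyx-1 (28.8) lie to the right of the dashed line at 27.4, the lowest value in the thresholded list, and myo-1 and tnt-4 have no point.

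Among the thick filament genes, the sites with the highest values belonged to the regulatory light chain genes mlc-1 and mlc-2, while the essential light chain gene mlc-3 had the lowest 5' value of the group. A pooled 5' site was found at 8 of these 10 genes (80.0%), beside 38.5% of all genes. The signal values had a median of 10.6 and a range of 6.73 to 19.9. The highest was 377 bp upstream of mlc-2, a regulatory light chain gene (chromosome X, WBGene00003370), with a signal value of 19.9 and rank 1586. This site had 18.9 in replicate 1 (rank 993) and 4.45 in replicate 2 (rank 3421). The neighbouring gene mlc-1, which encodes the other regulatory light chain, had a site 61 bp upstream with 15.3 in the pooled list (rank 2756), rank 14526 in replicate 1 and rank 1205 in replicate 2. The 2 genes point away from each other, so the 5' site of each is also the strongest upstream site of the other, and they are not independent counts. The replicates ordered this pair differently, with the mlc-2 site ahead in replicate 1 and the mlc-1 site ahead in replicate 2.

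The myosin heavy chain gene myo-3, whose product lies in the middle of the body wall thick filament, had a 5' site 504 bp upstream with a pooled value of 13, replicate 1 rank 11084 and replicate 2 rank 2428. Its site 1377 bp upstream reached 15.2 (rank 2793; replicate ranks 5777 and 5532) and its intronic site 625 bp downstream 13 (rank 3979; replicate 1 rank 5535, with no replicate 2 interval). unc-45, which encodes a myosin chaperone, had a site 501 bp upstream at 12.4 (rank 4496) that ranked only 16349 in replicate 1 and 13994 in replicate 2, and an intronic site at 10.7. The other members of the group are named after their values were seen. unc-54, the major body wall myosin heavy chain, had a 5' site at 7.49 and an upstream site at 13.4. A further interval, 4282 bp upstream of unc-54, ranked 823 in replicate 2 but 12485 in the pooled list, had no replicate 1 interval and lay 160 bp upstream of F11C3.1. The paramyosin gene unc-15 had 7.78 at the 5' end, the pharyngeal heavy chain gene myo-2 8.73 and the essential light chain gene mlc-3 6.73. The heavy chain genes myo-1 and myo-5 had no pooled 5' site. For myo-1, the only interval of any list in the 3 regions was in replicate 1, 1940 bp upstream at rank 17849.

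The thin filament genes carried the second highest 5' value of the set, and several of their strong sites lay in introns or further upstream. A pooled 5' site was found at 13 of 19 genes (68.4%), beside 38.5% of all genes. The signal values had a median of 11.9 and a range of 5.64 to 24.5. mup-2, the body wall troponin T gene (chromosome X, WBGene00003495), had the highest, 262 bp upstream, with 24.5 in the pooled list (rank 1033), 16.4 in replicate 1 (rank 1398) and 8.62 in replicate 2 (rank 874). It was outside the 832 strongest sites of both replicates, and nearer to that limit in replicate 2. Next were act-3, an actin gene (223 bp upstream, 16.5; replicate ranks 7156 and 2021), unc-60, which encodes ADF/cofilin (545 bp upstream, 16.2; replicate ranks 3947 and 3627), and unc-27, a troponin I gene (266 bp upstream, 16; replicate 1 rank 2158 and no replicate 2 interval). The 5' site of unc-27 was thus found in replicate 1 alone, although a weaker site of the gene, 2501 bp upstream (8.08), had a replicate 2 interval at rank 1304 and none in replicate 1. The opposite held for the actin gene act-1, named after its values were seen, whose site 454 bp upstream (15.1) ranked 1649 in replicate 2 and was missing from replicate 1.

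In introns, the strongest site of this group was 2911 bp downstream of the outermost 5' end of lev-11, the tropomyosin gene, with 25.2 in the pooled list (rank 977), 18 in replicate 1 (rank 1101) and 5.98 in replicate 2 (rank 1796). The actin gene act-4 followed with 22.1 (rank 1291; replicate ranks 2349 and 599) at 1819 bp, which is 435 bp upstream of a further annotated 5' end of the same gene. act-4 also had a site 95 bp upstream of its outermost 5' end with 15.8, at rank 10342 in replicate 1 and rank 840 in replicate 2. Its 2 upstream sites, at 13.6 and 11.7, ranked 2154 and 3877 in replicate 1 and had no replicate 2 interval. Both are nearest to M03F4.4, 121 and 863 bp upstream of its 5' end. Replicate 2 had a different interval 3429 bp upstream of act-4, at rank 1048. Upstream, the highest value was 23.9 at 4497 bp from act-2 (rank 1088), but this site lies 1599 bp downstream of the 5' end of the neighbouring actin gene act-1 and ranked 605 in replicate 1 against 13765 in replicate 2. The troponin I gene tni-1 had no 5' site and instead a site 1697 bp upstream at 19.5 (rank 1649; replicate ranks 1752 and 1177) and nearest to its own 5' end. The actin genes act-1, act-2 and act-3 stand side by side on chromosome V, and 5 of the 7 pooled sites that served more than 1 of the 54 genes were theirs.

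Thin filament genes without a pooled 5' site, named after their values were seen, were tni-1, the troponin T genes tnt-3 and tnt-4, the pharyngeal troponin C gene tnc-2, unc-78, whose product acts with ADF/cofilin, and the calponin-related gene cpn-3. Of these 6, tnc-2, unc-78 and cpn-3 had a 5' interval in replicate 2 and none had a 5' interval in replicate 1. tnt-4 had no pooled interval in any of the 3 regions, and tnc-2 had none in replicate 1.

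The 3 genes of giant immunoglobulin-domain proteins had weak 5' sites or none, and most of their intronic sites were in unc-89. A pooled 5' site was found at 2 of the 3 genes (66.7%), beside 38.5% of all genes. unc-89, the obscurin gene, had its strongest 5' site at 7.39 (163 bp upstream) and ttn-1, a titin-related gene, at 5.92 (65 bp upstream). Neither gene had a 5' interval in replicate 2, and ttn-1 had none in replicate 1 either. unc-22, the twitchin gene, had no 5' site in any list. Their introns held 20 pooled sites, 14 in unc-89 and 3 each in unc-22 and ttn-1. Over 69.8 kb of intronic sequence this is 0.286 per kb, close to the 0.277 over all genes. The strongest of them were at 15.2 in unc-22 (331 bp downstream, rank 2802; replicate ranks 20326 and 2058) and at 14.5 in unc-89 (14874 bp downstream, rank 3069; replicate ranks 5904 and 2287). ttn-1, the longest gene of the set, reached 6.63. Upstream, unc-89 had 19.6 (rank 1637) at 3149 bp, a site that lies 814 bp upstream of unc-73, and ttn-1 had 6.38.

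Attachment genes had pooled 5' sites at a share close to that of all genes, and sites in the introns of most of them. A pooled 5' site was found at 8 of 18 genes (44.4%), beside 38.5% of all genes, with a median of 8.85 and a range of 5.95 to 16.8. unc-112, the kindlin gene (chromosome V, WBGene00006836), had the highest, 292 bp upstream, with 16.8 (rank 2266), rank 1776 in replicate 1 and no replicate 2 interval. unc-98, an M-line zinc finger protein gene, followed at 13.9 (81 bp upstream, rank 3390; replicate ranks 5845 and 7826), inside an intron of the neighbouring gene pcyt-1, then pat-6, the parvin gene, at 11.7 (rank 5157) and pat-3, the beta integrin gene, at 9.81 (rank 8268). The pat-6 and pat-3 sites had no replicate 2 interval. Without a pooled 5' site were deb-1, unc-96, unc-97, pat-2, pat-4, dim-1, alp-1, zyx-1, lim-8 and dys-1, named here after their values were seen. They include the genes for vinculin (deb-1), alpha integrin (pat-2), integrin-linked kinase (pat-4) and dystrophin (dys-1). Among these genes without a pooled 5' site, unc-97 had a 5' interval in replicate 1 (12.9, rank 2556). In replicate 2, deb-1, unc-97, pat-2, dim-1 and dys-1 had one, at ranks from 12731 to 16371.

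In introns, 14 of the 18 attachment genes had a pooled site (77.8%), beside 23.5% of all genes. Together they held 57 of the 100 site and gene pairs of the set. These 18 genes also hold 140.2 kb of intronic sequence, which is 50.2% of that of the 54 genes. They thus had 0.407 pairs per kb, beside 0.358 over the set and 0.277 over all genes. The strongest was in zyx-1, the zyxin gene (chromosome II, WBGene00006999), whose window is printed above. It is the only thresholded intronic site of the 54 genes, with 28.8 in the pooled list (rank 741), 20.5 in replicate 1 (rank 814) and 6.79 in replicate 2 (rank 1399). It lies 10068 bp downstream of the outermost 5' end and 31 bp upstream of a further annotated 5' end of zyx-1. dim-1, an immunoglobulin-domain protein gene, was next at 18.5 (4895 bp downstream, rank 1850; replicate ranks 2097 and 5656), 645 bp upstream of a further 5' end of its own. lim-9, a LIM-domain protein gene named after its values were seen, had 16 intronic sites, the most of any member, the strongest at 17.8. Upstream, pat-3 had 25.5 (1714 bp, rank 951) with 16.4 in replicate 1 (rank 1384) and 6.95 in replicate 2 (rank 1329). That site is closer to the 5' end of ccdc-47, from which it lies 1104 bp upstream. unc-97, the PINCH gene, had 16.7 at 1100 bp (rank 2270; replicate ranks 2556 and 901), just outside the 5' window, and its own 5' end was the nearest.

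The 4 calcium-handling genes held the strongest site of the whole set and its strongest 5' site. egl-19, the gene for the alpha 1 subunit of the L-type calcium channel (chromosome IV, WBGene00001187), had the only thresholded upstream site of the 54 genes. At 3307 bp upstream it had 43.3 in the pooled list (rank 272), 33.9 in replicate 1 (rank 220) and 11.2 in replicate 2 (rank 488), and it was the only site of the 54 genes among the 832 strongest of both replicates. The nearest 5' end of a protein-coding gene is that of C48A7.16, 3202 bp away, and the site lies in no annotated protein-coding gene. A further egl-19 site at 4944 bp had 17.7 (rank 2014), rank 14601 in replicate 1 and rank 621 in replicate 2. In its introns the highest value was 15.4 (10009 bp downstream, rank 2735; replicate ranks 3028 and 6554). In the 5' window egl-19 had no pooled site and no replicate 1 site, and its replicate 2 interval ranked 9561.

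sca-1, the gene for the calcium pump of the sarcoplasmic reticulum (chromosome III, WBGene00004736), had the strongest 5' site of the 54 genes. It lies 476 bp upstream, with 26.3 in the pooled list (rank 893), 17.4 in replicate 1 (rank 1208) and 8.53 in replicate 2 (rank 889). This value falls just below the lowest thresholded value of 27.4, and the next 5' value of the set was 24.5 at mup-2. sca-1 had 7 pooled sites further upstream, the strongest at 3126 bp with 22 (rank 1300; replicate 1 rank 903 and no replicate 2 interval). unc-68, the ryanodine receptor gene, had a 5' site at 12.4 (408 bp upstream, rank 4443; replicate 1 rank 4401 and no replicate 2 interval). csq-1, the calsequestrin gene, had 12 (247 bp upstream, rank 4852; replicate ranks 9225 and 2449). Pooled intronic sites were found in all 4 genes, beside 23.5% of all genes. Per kb of intronic sequence these genes held 0.294 sites, beside 0.277 over all genes.

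**Figure D3:**
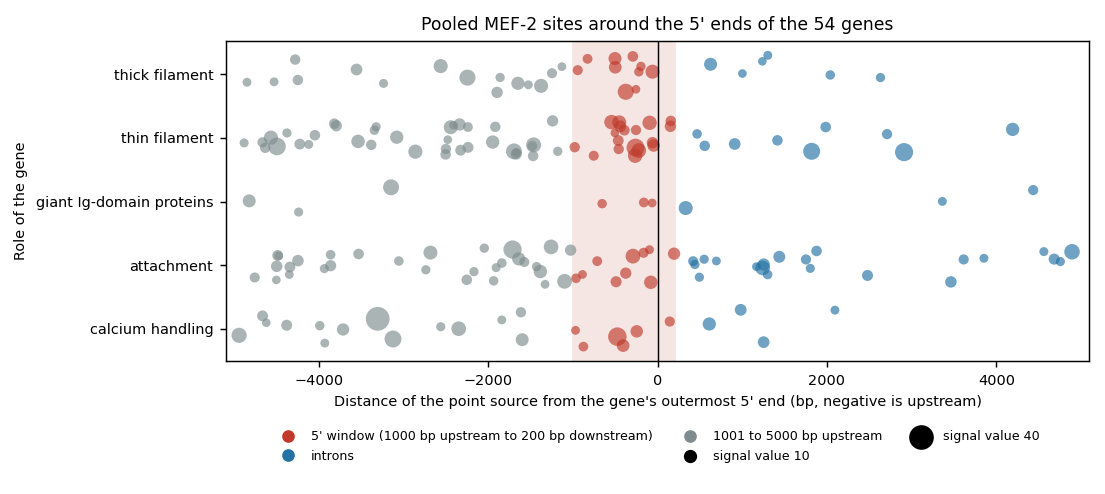
Pooled sites within 5000 bp of the outermost 5' end of the 54 genes (horizontal axis, distance in bp, negative upstream), in rows by role, with point area in proportion to the signal value and vertical scatter without meaning. Intronic sites further than 5000 bp downstream, such as that of zyx-1, are not drawn. The largest point is the egl-19 site 3307 bp upstream (43.3), and the 5' window (shaded) holds the sca-1 site (26.3) and the mup-2 site (24.5).

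Introns were counted over all genes in the same way. A thresholded site lay in an intron of 1 of the 54 genes (1.85%, Wilson 0.328 to 9.77), beside 0.736% of all genes. Pooled intronic sites were found at 31 genes (57.4%, 44.2 to 69.7), beside 23.5%, those of replicate 1 at 32 (59.3%, 46 to 71.3), beside 24.9%, and those of replicate 2 at 24 (44.4%, 32 to 57.6), beside 15.5%. The 54 genes have longer introns, with a median of 2156 bp of intronic sequence per gene against 676 bp over all genes. Per kb of intronic sequence they held 0.358 pooled sites, against 0.277 over all genes. The density was 0.369 against 0.295 in replicate 1 and 0.186 against 0.152 in replicate 2, so the excess in density was much smaller than the excess in genes with a site. Of the 24 members with several annotated 5' ends, 17 of 80 pooled intronic sites (21.2%) lay in the 5' window of such an internal end, beside 23.6% over all genes.

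Upstream sites, beyond 1000 and up to 5000 bp from the 5' end, were frequent at most genes. Thresholded sites were found at 1 of the 54 genes (1.85%), beside 3.49% of all genes. Pooled sites were found at 45 (83.3%, 71.3 to 91.0), beside 63.5%. The counts were 49 in replicate 1 (90.7%, 80.1 to 96), beside 66.5%, and 39 in replicate 2 (72.2%, 59.1 to 82.4), beside 44.8%. Many of these sites lie nearer to the 5' end of another gene. The member's own 5' end was the nearest for 43 of 98 pooled upstream pairs of site and gene (43.9%), beside 27.3% over all genes. In the 5' window it was the nearest for 42 of 47 pairs (89.4%), beside 81.6%, at a median of 377 bp upstream for the members and 304 bp upstream for all genes. When an upstream site was given to its nearest gene only, 25 members kept a pooled one, beside 20.1% of all genes, and the egl-19 site was lost.

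The replicates shared some of these sites but ranked them differently. Of 236 distinct pooled sites in the 3 regions of the 54 genes, 69 (29.2%) overlapped intervals of both replicates, 120 (50.8%) of replicate 1 only, 23 (9.75%) of replicate 2 only and 24 (10.2%) of neither. Over all genes these shares were 24.6, 56.7, 8.16 and 10.5%. A single replicate interval can overlap more than 1 pooled site. For upstream sites the share in both lists was 37.2% for the 54 genes, beside 24.4% for all genes, and for introns it was 21%, beside 20.9%. Spearman's rho between the replicate ranks, given as a description across sites that share both libraries, was 0.299 over 16 sites at 5' ends, 0.388 over 21 in introns and 0.295 over 35 upstream.

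**Figure D4:**
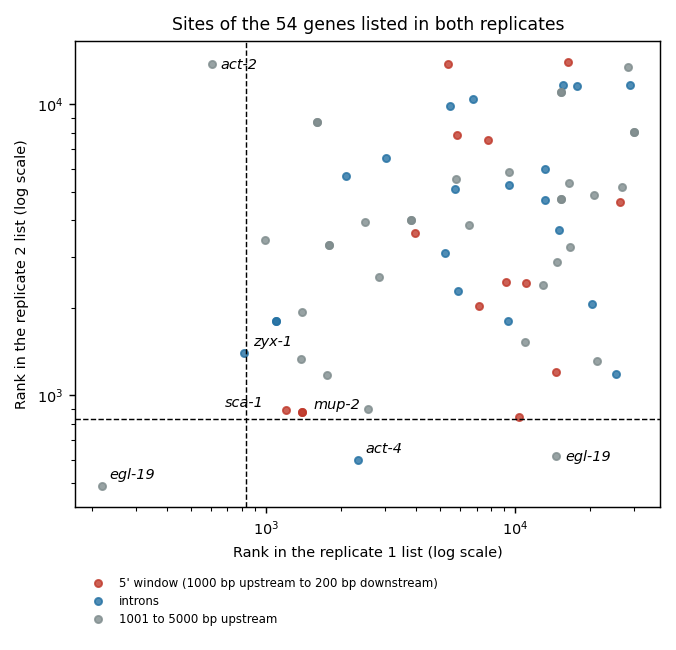
Rank in replicate 1 (horizontal axis) and in replicate 2 (vertical axis, both log scales, 1 is the strongest) of the 69 pooled sites of the 54 genes that overlapped an interval in both replicate lists, by region. Dashed lines mark rank 832, and only the upstream site of egl-19 (ranks 220 and 488) lies inside both, while 2 others lie inside in replicate 1 only, in zyx-1 (814 and 1399) and upstream of act-2 (605 and 13765), and 2 in replicate 2 only, in act-4 (2349 and 599) and further upstream of egl-19 (14601 and 621).

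The DNA under these sites was searched on both strands for the MEF2 element, known by that name, and for the E-box CAGCTG, which is bound by HLH-1, the MyoD-related factor of worm muscle. The 5' windows of 18 of the 54 genes (33.3%, 22.2 to 46.6) held a MEF2 element, beside 37.5% of all genes, and those of 4 genes held the E-box (7.41%, 2.92 to 17.6), beside 20.9%. The 4 genes with the E-box, named after their values were seen, were mup-2, tni-3, tni-4 and unc-89. Within 100 bp of the point source, 5 of the 236 pooled sites of the 54 genes held the MEF2 element (2.12%, 0.908 to 4.86), beside 7.11% of all 28155 nuclear pooled sites. The stricter form of the element was at 0 of the 236 and at 0.849% of all sites, and the E-box at 7 of the 236 (2.97%) and at 4.50% of all. The median A/T content was 62.7% at these sites and 64.7% at all, and at 5' sites it was 58.7% for the 54 genes and 64.2% for all genes. The element is itself rich in A and T, and the part of base composition in these shares was not tested.

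The 5 sites with the element, named after their values were seen, were mostly weak. They lay 460 bp upstream of the troponin I gene tni-3 (8.20, rank 13198), in introns of ttn-1 (6.54) and lim-9 (5.73), 3346 bp upstream of unc-60 (6.89) and 4568 bp upstream of unc-78 (15.5, rank 2697). The tni-3 site also held the E-box and lies inside an intron of the neighbouring gene phy-3. The unc-60 site ranked 19368 in the pooled list and 1234 in replicate 2, with no replicate 1 interval. The unc-78 site is nearer to dhs-27, 1473 bp upstream of its 5' end.

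The GAGAG run, also counted on both strands within 100 bp, was found at 107 of the 236 sites (45.3%, 39.1 to 51.7), beside 30.8% of all nuclear pooled sites and 23% of all windows of 201 bp tiled over the nuclear genome. Its share was higher at stronger sites, both for the 54 genes and for all. Among the 5000 strongest pooled sites it was at 41 of 58 (70.7%, 58 to 80.8) for the 54 genes, beside 50.1% of all, and beyond rank 5000 at 66 of 178 (37.1%, 30.3 to 44.4), beside 26.7%. Of the 806 nuclear thresholded sites, 69.4% held it. The run was chosen from member sites that are among those counted, and the strongest member sites were also lower in A/T (median 54%, beside 60.2% of all among the 5000 strongest), so these shares are a description only.

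The gene mef-2 itself, on chromosome I, held the strongest pooled site of all in an intron (428, rank 1) and a site at its 5' end (71.0, rank 71). The highest signal value of the 54 genes, 43.3 at egl-19, was below both. The strain carries wgIs301, an insertion of tagged mef-2, and its part in the values at and around mef-2 was not tested. The nearest member, lim-9, lies 80948 bp from mef-2, and the next, unc-15, 1712760 bp.

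A list of 59 other muscle and attachment genes, none of them among the 54, was counted in the same way. Thresholded 5' sites were found at 0 of the 54 genes and at 4 of these 59 (6.78%, 2.67 to 16.2), beside 2.93% of all genes. Those 4 were crt-1, which encodes the calcium-binding chaperone calreticulin (224 bp upstream, 42.8, rank 276; replicate ranks 435 and 249), mel-26, an adaptor of a ubiquitin ligase (35.6), and cap-2 (30.7) and cap-1 (27.6), the 2 subunits of actin capping protein. mel-26 lies 31676 bp beyond the end of mef-2, and the part of the wgIs301 insertion in its values was not tested. The 95% Wilson intervals of 0 to 6.64 for the 54 genes and 2.67 to 16.2 for the 59 overlap, and both contain the share of all genes. Pooled 5' sites were about as frequent in both, at 34 of 54 (63.0%) and 36 of 59 (61.0%, 48.3 to 72.4), beside 38.5% of all genes. Among the 5000 strongest sites they were at 29.6% of the 54 and at 16.9% (9.48 to 28.5) of the 59, beside 12.3% of all genes. Pooled sites lay in introns of 31 of the 54 genes (57.4%) and 36 of the 59 (61.0%), beside 23.5% of all genes. They lay upstream of 45 of the 54 (83.3%) and 49 of the 59 (83.1%), beside 63.5%. In replicate 2 the 5' counts were 30 of 54 (55.6%) and 24 of 59 (40.7%, 29.1 to 53.4), beside 25.3% of all genes. In replicate 1 they were 27 of 54 and 37 of 59 (62.7%), beside 39.6%, so the replicates put the 2 lists in opposite orders. In introns, him-4, the hemicentin gene (27.9), and unc-43, the CaM kinase II gene (28.2), had a thresholded site (3.39% of the 59, beside 0.736% of all genes). Upstream, cmd-1, the calmodulin gene (4771 bp, 69.5, rank 82), the sarcoglycan gene sgn-1 (3939 bp, 42.7) and mel-26 (3553 bp, 40.9) had one. This is 5.08% of the 59, beside 3.49% of all genes. Whether another gene's 5' end lies nearer to these sites was not determined. The muscle transcription factor gene hlh-1, named after its values were seen, had its strongest 5' site at 11.5 (rank 5502).

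The 54 genes include 15 on the X chromosome, where 9 had a pooled 5' site (60%, beside 39.5% of all X genes), and 39 on autosomes, where 25 did (64.1%, beside 38.3%). The share was highest on chromosome V, at 10 of 12 (83.3%), beside 33.1% of all genes there, and 3 of these 10 are the neighbouring actin genes. On V the replicate 1 count was 8 (66.7%, beside 34.6%) and the replicate 2 count 5 (41.7%, beside 20.2%). The pooled share was below that of all genes on chromosome II (1 of 3, 33.3%, beside 36.1%) and IV (2 of 6, 33.3%, beside 37.3%). It was above on I (72.7%, beside 43.1%) and III (57.1%, beside 47.1%).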

How the data were processed

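ChIP-seq peak lists of 2 replicates were used, all on ce11. Per the deposited file records, a control was used in calling every relaxed list, and the thresholded list, limited by IDR (irreproducible discovery rate), derives from those of the pool and of both replicates. How reads were aligned, which caller made the peaks and the limit set on the IDR were not given in the sources used here. The authors deposited a signal value and a point source for each peak. The scale of the signal is not stated and no counts were given, so depth is unknown.

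A site was a point source, placed against the outermost 5' end of nuclear protein-coding genes (Ensembl release 115) in 3 regions: the 5' window, introns more than 200 bp downstream, and beyond 1000 and up to 5000 bp upstream. The nearest 5' end of a site was sought among the outermost 5' ends of protein-coding genes only. Overlap between lists needed 1 bp. Scripts used python 3.11.15, numpy 2.4.6, scipy 1.17.1 and matplotlib 3.10.9, and the placement of sites was tested on simulated data. The lists on ce10 were not used here.

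The 54 genes, the 59 other muscle genes and the lists were chosen with earlier results of these data known. Named genes were those with a thresholded site, the up to 4 of each role with the highest pooled 5' value and the up to 2 highest in introns and upstream, the other muscle genes with a thresholded site or one of the 3 highest 5' values, and mef-2; others are marked where they appear. No test was run, since no groups are compared and the set was chosen by name.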

Additional observations from a re-analysis of the deposited data

How the results depend on the processing

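Of 79 alternatives to the 14 counts, 61 stayed within 1.5 times the reported count and 18 did not. In this paragraph a share in brackets after a count of members is the share of all genes, not of the members. For counts of sites it is the share of all nuclear pooled sites. The thresholded 5' count of 0 became 1 when every annotated transcript was used (zyx-1, beside 3.21% of all genes) and was 0 under each other alternative tried. The pooled 5' count of 34 (38.5% of all genes) ranged from 23 to 46 over its alternatives. It was 23 (24.3%) in the stronger part of the list. With the wide window (2000 bp before to 500 bp after the 5' end) it was 46 (54.9%). With that window, the replicate 1 count at 5' ends was 41 (57.4% of all genes). In the stronger part of each list, cut at its middle, the counts were 16 at 5' ends in replicate 2 (15.9%), 0 in introns of the thresholded list (0.411%), 19 in introns of the pooled list (13.3%) and 32 upstream in replicate 1 (42.2%). With sites given to the nearest 5' end only, upstream counts were 0 thresholded (0.751%), 25 pooled (20.1%), 29 in replicate 1 (21.1%) and 17 in replicate 2 (12.9%). Without sites in other genes or their 5' windows, the upstream count in replicate 2 was 23 (14.6%). The strict form of the MEF2 element was in 0 of the 5' windows (3.73%) and at 0 of the members' sites (0.849%). The narrow window (500 bp before to 100 bp after) left 9 members with the element (21.2% of all genes). A search within 200 bp found it at 13 of 236 member sites, a share of 5.51%, beside 14.1% of all nuclear pooled sites. Leaving out a replicate gave 2 thresholded upstream members each time (lowest and highest both 2), and 6 to 12 member sites with a MEF2 element. The last 2 alternatives, the searches for the element with a replicate left out, were chosen after seeing the data. With replicate 1 left out the share was 4.32% of member sites, beside 5.63% of all, and with replicate 2 left out 5.13%, beside 7.51%. The cause of these changes was not tested, beyond the shorter lists and narrower rules themselves. No paired analysis was possible because the 2 replicates form a single group. Depth is unknown, so a site that is missing from a list may have been missed.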
